A study of Mus musculus with 12 samples.

Results

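The genes of glucocorticoid activation and response described here are *Hsd11b1*, *Nr3c1*, *Tsc22d3*, *Fkbp5*, *Zbtb16*, *Per1*, *Mt1* and *Mt2*, 8 of the 27998 genes counted, named for their known roles at a time when earlier results of these data were known. They were examined in single-cell RNA sequencing of sorted live CD45-negative cells, that is, cells lacking the surface protein of blood-derived cells, from hind limb joints of wild-type C57BL/6 mice. According to the methods the animals were male and 8 to 10 weeks old. Serum transfer-induced arthritis (STIA) was started with 100 µl of serum from arthritic K/BxN mice, which carries antibodies that settle in joints and cause an inflammation that later subsides without treatment. The 12 libraries carry 4 labels of 3 libraries each, which are rest (day 0, before disease), peak at 7 to 9 days after serum, resolving at day 15, and resolved, taken at day 22, and each library pooled the joints of 3 animals.

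Glucocorticoids are steroid hormones of the adrenal cortex that damp inflammation and are used to treat arthritis. The enzyme 11β-hydroxysteroid dehydrogenase type 1, encoded by *Hsd11b1*, regenerates active corticosterone from its inert 11-keto form inside cells, and the hormone then binds the glucocorticoid receptor (*Nr3c1*), which moves to the nucleus and switches genes on or off. *Tsc22d3* (the leucine zipper protein GILZ), *Fkbp5* (a co-chaperone that lowers the receptor's affinity for hormone), *Zbtb16* (the transcription factor PLZF) and *Per1* (a clock gene) are among the best known genes induced by the receptor, while the metallothioneins *Mt1* and *Mt2*, small zinc-binding proteins, are induced by glucocorticoids, by metals and by inflammation. Induction of a target in a tissue can therefore come from hormone in the blood, from local activation or from other inputs, which these data do not separate.

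After the filters on genes and UMIs (unique molecular identifiers, by which each captured RNA molecule is counted once) 20060 of 21042 cells were kept, 1227 to 2747 per library, with 7468914 to 16566202 UMIs per library. The median was 5358 UMIs per deposited cell in all 12 libraries, and no step that would make these medians equal is given in the sources used here. No barcode occurred in 2 libraries, but each ends in the number of its own library, so none could. Each library's barcodes end in a number from 1 to 12, and in the fibroblast sums the library most like any other was, in 12 of 12 cases, one of the same run of 3 neighbouring numbers (1-3, 4-6, 7-9 or 10-12) and in 0 of 12 cases one with the same stage label. Each run mixes 3 of the 4 stage labels, and what a run stands for (a day, a cohort or a stage) is not given in the sources used here, so stage results are given as those of the libraries labelled so and the runs are described beside them. Of 26 clusters, found with the 8 genes and all genes of the lists described further on kept out of the clustering, 12 were fibroblast-like by *Pdgfra*, *Pdpn*, *Dcn*, *Lum* and similar markers (13556 cells, 67.6%), 13 took the name of another cell class from its own markers and 1 of 27 cells stayed unnamed. Several of the fibroblast-like clusters also held markers of another class among the genes that most set them apart from other fibroblasts. These markers were *Kera*, *Tnmd* and *Acan* in the *C1qtnf3* cluster, *Ibsp* and *Hapln1* in the *Cytl1* cluster and *Bglap* in the *Nppc* cluster. *Kera* also led in the *Itih2* cluster, *Acta2* in the *Il1rl1* cluster and *Rgs5* in the *Prg4* cluster.

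Levels are given in CPM, a gene's UMI count scaled to the total UMI count of a class in a library, for sums of at least 10 cells, and each UMI tags the 3′ end of a transcript, so levels were compared between cells and not between genes. A difference is called when edgeR's quasi-likelihood test gave a Benjamini-Hochberg adjusted p under 0.05 over all genes and the log2 fold change exceeded 0.5 either way. Among 70 pairs of a gene and a class set against fibroblasts 39 were called, where 35.8% of all such pairs over 88490 genes and classes were called. *Fkbp5* was under the filter on low counts in this fit and the remaining 7 genes were tested. Classes and clusters were drawn from the same cells that are compared, so these p-values describe groups defined by other genes of those cells, and the median over all genes in these comparisons lay between -0.37 (Schwann-like) and 0.02 (vascular endothelial-like) on the log2 scale. Scaling by total counts alone moved these medians by up to 0.59 and the share of higher calls from 32.6 to 50.3% over the classes to 29.1 to 75%.

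*Hsd11b1* (GRCm38, chromosome 1, 193221634 to 193264075, minus strand) differed widely between joint cell types. In fibroblasts it stood at 22.5 ± 10.6 CPM (SD, n = 12 libraries), from 6.06 to 40.0. Muscle-like cells held 132 ± 67.0 (n = 9), a log2 fold change over fibroblasts of 2.64 (SE 0.23, adjusted p = 3.72e-18 in edgeR), and their lowest library, at 29.6, lay inside the fibroblast range. The muscle signal came from 1 of the 2 muscle-like clusters: of 264 cells led by the satellite cell regulators *Pax7*, *Myod1* and *Myf5*, 121 (45.8%, 95% Wilson interval 39.9 to 51.9%) held an *Hsd11b1* UMI, against 0 of 132 cells led by the mature fibre genes *Acta1* and *Ckm*, which allows a share of up to 2.27%. The 2 clusters differed in other members too, with 15337 CPM of *Mt1* over all cells of the *Pax7* cluster and 794 in the *Acta1* cluster, and 162 against 454 of *Tsc22d3*. These are sums over pooled libraries, with no test.

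Immune-like cells, led by the neutrophil genes *S100a8* and *S100a9* and left in spite of the sort against CD45, held *Hsd11b1* at 67.1, 87.0 and 262 CPM in the 3 libraries with enough cells (log2 fold change 3.39, SE 0.46, adjusted p = 1.92e-09), from 40 UMIs in all. At the other end the enzyme was almost not detected in chondrocyte-like cells (0.511 ± 0.784, n = 8, 4 UMIs), vascular endothelial-like cells (2.07 ± 1.78, n = 12) and osteoblast-like cells (2.95 ± 2.21, n = 12). Their log2 fold changes against fibroblasts were -4.38 (SE 0.57), -3.43 (SE 0.33) and -3.16 (SE 0.32), with adjusted p-values of 1.26e-10, 1.84e-16 and 1.21e-14. Perivascular-like cells were lower as well (-2.09, SE 0.38), and proliferating cells by less (-0.87, SE 0.28). The call of a lower level in tenocyte-like cells (-0.79, SE 0.29, adjusted p = 0.0348) was lost in 12 alternatives, at -0.67 to -0.74, and turned to 0.20 without the *Ccl11* fibroblast cluster. Without that cluster the differences were -3.30 for chondrocyte-like, 3.71 for muscle-like, -2.14 for osteoblast-like and -1.22 for perivascular-like cells, all still called, and -0.21 for proliferating cells, no longer called. The levels in lymphatic endothelial-like (0.21, SE 0.39) and Schwann-like cells (-1.44, SE 0.93) did not pass the test.

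Per cell, 7.92% of fibroblasts (1073 of 13556, 95% Wilson interval 7.47 to 8.38%) held an *Hsd11b1* UMI at a median of 5741 UMIs. Erythroid-like cells, which should lack the transcript, gave 1.61% (1 of 62, 0.285 to 8.59%) at a median of 5779, and vascular endothelial-like cells 0.904% (0.557 to 1.46%) at 3176.5. With every cell thinned to 2000 UMIs the share was 3.82% in fibroblasts (227 shallower cells left out), 23.0% in muscle-like and 16% in immune-like cells, 0.446% in vascular endothelial-like cells, 1.61% in erythroid-like cells (1 of 62) and 0 of 314 in chondrocyte-like cells, which allows up to 0.955%. At both depths fibroblasts lay between the muscle-like and the vascular endothelial-like cells, and the wide interval of the erythroid-like cells included their share. Intervals and limits cover counting error only.

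**Figure D1:**
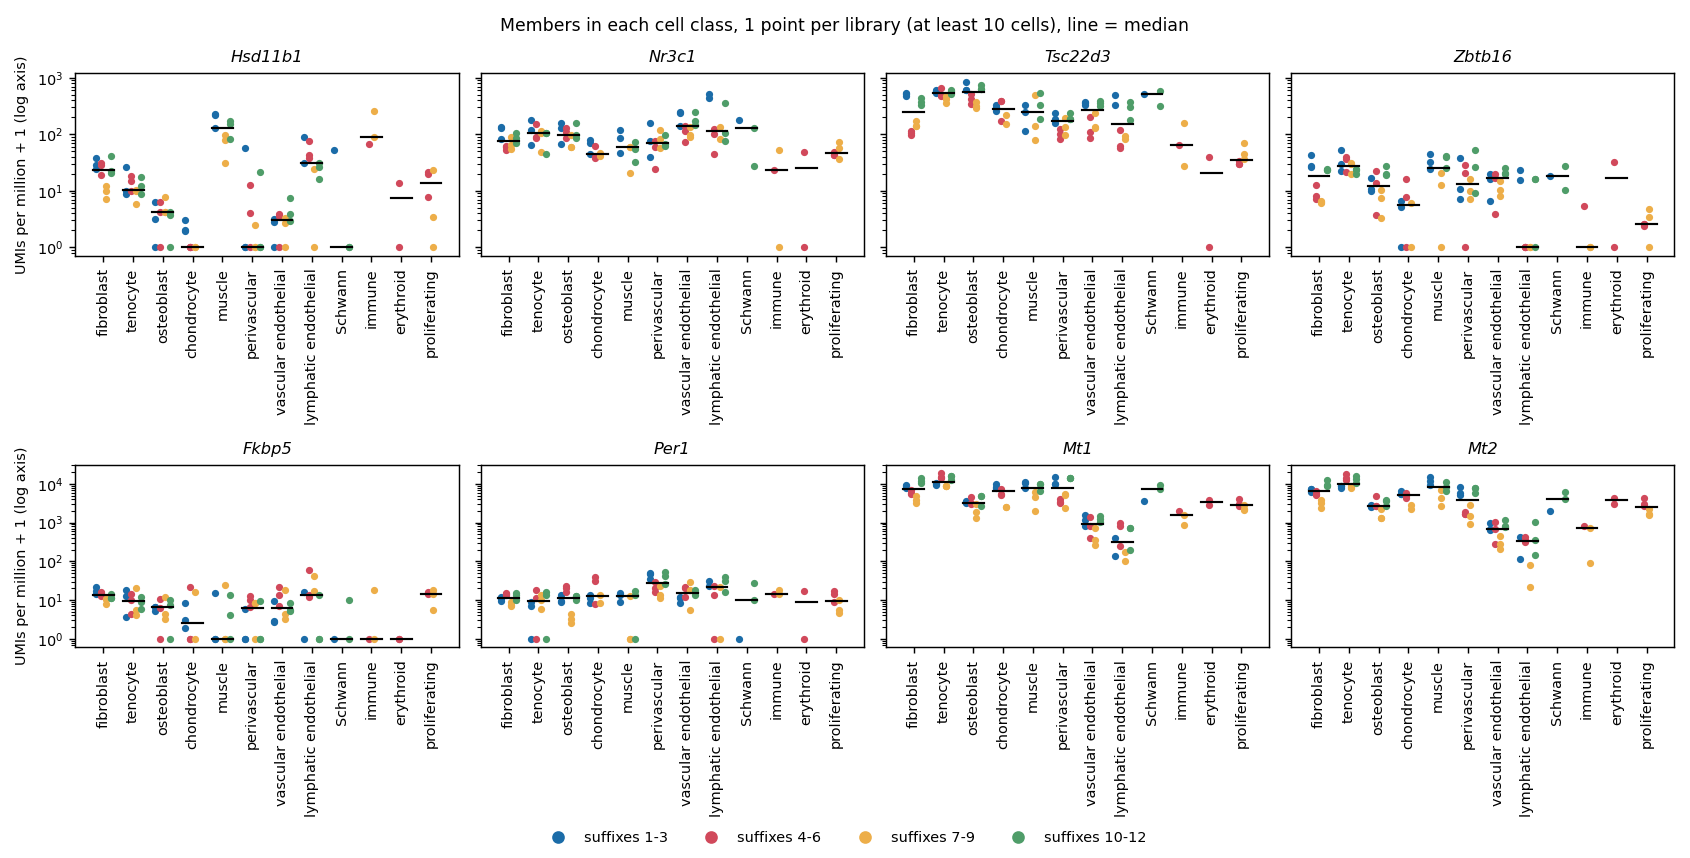
CPM plus 1 on a log axis for each gene (panel) and cell class (x axis), with 1 point per library of at least 10 cells coloured by its run of barcode suffixes and a line at the median. *Hsd11b1* is highest in muscle-like and immune-like cells and near the bottom of the axis in chondrocyte-like and vascular endothelial-like cells, while *Mt1* and *Mt2* are lowest in both endothelial classes.

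Inside the fibroblasts the level of *Hsd11b1* was highest in 1 cluster, which held about as many of its UMIs as all others together. The cluster led by the eosinophil chemokine gene *Ccl11* held 270 ± 81.7 CPM (n = 12), with a lowest library of 118, a median of 291 and a highest of 388. The other 11 clusters had means between 1.01 and 24.4, and their highest single library stood at 53.8, so the ranges did not overlap. Its 821 cells, out of 13556 fibroblasts, gave 942 of 1888 fibroblast UMIs of the gene (49.9%). It exceeded the mean of the other clusters by 5.0 on the log2 scale (SE 0.12, adjusted p = 2.39e-66 in edgeR). Next came the cluster led by the neutrophil chemokine gene *Cxcl5* (24.4 ± 7.12, n = 6, log2 fold change 1.35), a cluster led by *Cytl1* (1.04) and one led by the natriuretic peptide gene *Nppc* (0.58, a call lost in 3 alternatives).

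The synovial lining, the thin layer that faces the joint space, lay at the bottom. In lining-like fibroblasts, named by the lubricin gene *Prg4* and by *Clic5*, 7 UMIs of *Hsd11b1* were counted over 12 libraries, a mean of 1.01 ± 1.06 and a highest library of 2.64. Against fibroblasts that were neither lining-like nor sublining-like (28.1 ± 14.9) the log2 fold change was -5.17 (SE 0.34) and against the same cells it was -1.62 (SE 0.21) in the sublining-like cluster led by *Pi16* (8.54 ± 5.98). The 2 groups of libraries did not overlap for the lining, since the lowest of the other fibroblasts was 6.44. In these subset comparisons 29.1% of all genes were called for the lining and 18.5% for the sublining, and of the 16 pairs of a gene and a subset 6 were called, or 2 with each cell thinned to 2000 UMIs. The other calls were *Tsc22d3* (-1.64, SE 0.17), *Fkbp5* (-1.34, SE 0.24) and *Zbtb16* (-0.64, SE 0.21) in the lining and *Zbtb16* (1.05, SE 0.18) in the sublining, where the last 2 were each lost in other alternatives. None of the 6 calls failed its own test with thinned cells, but with 2 calls there at most 2 of the 6 were still tested. The thinned cells are therefore no check of the rest.

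*Nr3c1*, the receptor itself, was counted in all 12 classes. It stood at 82.3 ± 28.4 CPM in fibroblasts (n = 12, from 51.8 to 136) and was called higher in vascular endothelial-like cells (153 ± 60.8, n = 12, log2 fold change 0.62, SE 0.13, adjusted p = 1.13e-05). It was called lower in immune-like (-1.76, SE 0.51, from 8 UMIs), proliferating (-0.55, SE 0.18) and chondrocyte-like cells (-0.52, SE 0.19), where the chondrocyte call was lost in 5 alternatives (-0.49 to -0.40). The call of a higher level in lymphatic endothelial-like cells (196 ± 170, n = 10, 0.51, SE 0.19, adjusted p = 0.0210) was lost in 11 alternatives. That in vascular endothelial-like cells was lost at a coarser clustering (0.46), and that in proliferating cells with scaling by total counts alone (-0.42). Thinned to 2000 UMIs, 28.8% of vascular endothelial-like cells and 15.2% of fibroblasts held a UMI of the receptor, against 4.84% of erythroid-like cells (3 of 62), and at deposited depth the shares were 44.6%, 37.1% and 17.7%.

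Among fibroblast clusters *Nr3c1* was called higher in the *Ccl11* cluster (139 ± 38.9, n = 12, log2 fold change 0.76, SE 0.10) and the *Myoc* cluster (124 ± 31.6, 0.55, SE 0.09). It was called lower in the clusters led by *Il1rl1* (46.8 ± 7.21, n = 6, -0.87), *Cxcl5* (49.8 ± 6.34, n = 6, -0.64) and *C1qtnf3* (54.3 ± 11.9, n = 8, -0.57). The library ranges of the *Ccl11* cluster (91.3 to 210) and of the *Cxcl5* cluster (44.6 to 60.5) did not overlap. The 6 libraries of the *Il1rl1* and *Cxcl5* clusters were those of suffixes 4 to 9, where fibroblasts as a whole were lower in the gene. These means therefore mix cluster and run, while the fold changes come from a fit with library as a block.

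Of the receptor's classical targets, *Tsc22d3* (chromosome X, 140539528 to 140600659, minus strand) encodes GILZ, which blocks inflammatory transcription factors. Fibroblasts held 287 ± 176 CPM (n = 12, from 97.0 to 529, median 252). Tenocyte-like cells held 530 ± 89.1 (n = 12, log2 fold change 1.19, SE 0.17, adjusted p = 1.77e-08) and osteoblast-like cells 528 ± 183 (n = 12, 0.93, SE 0.17, adjusted p = 2.05e-06). Of the classes tested the level was lowest in proliferating cells, at 39.9 ± 15.5 (n = 6, -2.33, SE 0.26, adjusted p = 6.56e-13), whose highest library, at 69, lay under the lowest fibroblast library. These 6 libraries are those of suffixes 4 to 9, where fibroblasts were low in the gene themselves. In suffixes 4 to 6 proliferating cells held 29.8 ± 2.47 and fibroblasts 105 ± 8.96. In 7 to 9 they held 49.9 ± 17.1 and 149 ± 17.2 (n = 3 each). Lymphatic endothelial-like (-1.0, SE 0.23), perivascular-like (-0.92, SE 0.19) and immune-like cells (-1.30, SE 0.45) were called lower too.

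The fibroblast clusters differed in *Tsc22d3* as well. The *Nppc* cluster, which also carried the osteoblast marker *Bglap*, held 1395 ± 460 CPM (n = 12, from 714 to 2363, log2 fold change 2.93, SE 0.09, adjusted p = 9.09e-59). The *Cxcl5* and *Il1rl1* clusters, present in 6 libraries each, held 41.8 ± 10.1 and 44.0 ± 9.98 (log2 fold changes -2.04, SE 0.19, and -2.09, SE 0.19). The lining-like cluster was lower as well, at 99.5 ± 40.0 (-1.22, SE 0.12), while the *Ccl11*, *Cytl1*, *Myoc* and *Itih2* clusters were called higher by 1.13, 0.84, 0.78 and 0.76. The library ranges of the *Nppc* and *Cxcl5* clusters did not overlap. The 6 libraries of the *Cxcl5* and *Il1rl1* clusters were those of suffixes 4 to 9, where fibroblasts as a whole were low in the gene. Their means beside those of clusters with n = 12 therefore mix cluster and run.

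*Zbtb16* (chromosome 9, 48654297 to 48836222, minus strand) was sparse, at 16.9 ± 11.8 CPM in fibroblasts (n = 12, 1326 UMIs). It was called lower in proliferating (1.81 ± 1.24, n = 6, log2 fold change -2.58, SE 0.40), chondrocyte-like (4.65 ± 5.18, n = 8, -2.03, SE 0.41) and lymphatic endothelial-like cells (-2.01, SE 0.65, from 4 UMIs). The 6 libraries of proliferating cells are those of suffixes 4 to 9, where fibroblasts themselves held 5.10 to 11.9 CPM. Their mean beside that of 12 fibroblast libraries mixes class and run, while the fold change comes from a fit with library as a block. The higher level in tenocyte-like cells (28.4 ± 10.0, n = 12, 0.86, SE 0.23) was 0.03 without the upper limits on genes and UMIs per cell and 0.14 at a coarser clustering, with the call lost in both. Among clusters its highest mean was in the sublining-like *Pi16* cluster (41.8 ± 16.8, n = 12, log2 fold change 1.87, SE 0.15), followed by the *C4b* and *Ccl11* clusters (each 1.64) and the *Myoc* cluster (1.25). The *Il1rl1*, *Cxcl5* and *C1qtnf3* clusters, with 7, 31 and 24 UMIs, were lower by -2.71, -2.06 and -1.94. The *Il1rl1* and *Cxcl5* clusters had enough cells only in the libraries of suffixes 4 to 9, where fibroblasts as a whole were low in the gene.

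*Fkbp5* (chromosome 17, 28399094 to 28517527, minus strand) and *Per1* (chromosome 11, 69095217 to 69109960, plus strand) were sparsely counted. *Fkbp5* stood at 12.6 ± 3.86 CPM in fibroblasts (n = 12, from 6.75 to 21.3) and was called higher in the *C4b* cluster (20.0 ± 6.03, log2 fold change 0.93, SE 0.16) and lower in the lining-like cluster (5.45 ± 2.81, -1.25, SE 0.22), with the calls for the *Pi16* (0.54) and *Nppc* clusters (0.53) lost in 5 and 4 alternatives. At deposited depth 15.3% of proliferating cells and 7.49% of fibroblasts held an *Fkbp5* UMI, and thinned to 2000 UMIs the shares were 2.07% (1.26 to 3.39%) and 2.67% (2.41 to 2.96%), so that at equal depth the intervals overlapped. In erythroid-like cells 0 of 62 held one, which allows a share of up to 4.84%. *Per1* was called in 1 of 10 classes, the contractile perivascular-like cells (29.8 ± 14.7, n = 12, against 10.4 ± 2.91 in fibroblasts, log2 fold change 1.12, SE 0.22, adjusted p = 6.76e-06), and in 0 of 12 fibroblast clusters. Over all 8 genes 45 of 96 pairs of a gene and a cluster were called, with 21.7% called among all pairs over 90540 genes and clusters.

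*Mt2* and *Mt1* lie side by side on chromosome 8 of GRCm38, at 94172664 to 94173568 and 94179082 to 94180327 on the plus strand, with 5513 bp between them. Their promoters are shown because the metal response element, at which the zinc sensor MTF1 binds, is the best known input of this pair besides glucocorticoids. Each window runs from 250 bp before to 50 bp after the RefSeq start on GRCm38.p6, written 5′ to 3′ on the plus strand, with matches to TGCACNC or TGCGCNC on either strand in capitals.
Mt1, chr8:94178839-94179138: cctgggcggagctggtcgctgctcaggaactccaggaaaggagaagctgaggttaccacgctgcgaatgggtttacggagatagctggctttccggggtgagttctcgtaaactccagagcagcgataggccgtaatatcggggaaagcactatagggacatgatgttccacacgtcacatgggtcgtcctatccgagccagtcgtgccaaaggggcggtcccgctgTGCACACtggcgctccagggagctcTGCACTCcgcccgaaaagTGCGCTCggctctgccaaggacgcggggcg
Mt2, chr8:94172368-94172667: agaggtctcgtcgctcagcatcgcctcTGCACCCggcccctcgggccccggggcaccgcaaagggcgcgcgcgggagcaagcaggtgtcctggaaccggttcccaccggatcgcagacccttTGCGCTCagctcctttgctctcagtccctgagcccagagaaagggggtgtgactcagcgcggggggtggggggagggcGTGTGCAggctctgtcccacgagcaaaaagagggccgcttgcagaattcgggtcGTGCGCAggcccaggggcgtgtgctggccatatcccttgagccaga
The *Mt1* window holds 3 matches and the *Mt2* window 4, where 25.7% of 32851 RefSeq promoter windows hold at least 1 match and 1.97% hold 3 or more. AGAACA, the core of the glucocorticoid receptor's recognition sequence, is in 19.0% of windows, in neither of these and in 1 of 3 *Tsc22d3* windows, and the E-box CACGTG, in 7.15% of windows, is in 1 window each of *Fkbp5* and *Per1*. A match is a run of letters and not a shown binding site.

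The metallothioneins separated both endothelial classes from fibroblasts. Fibroblasts held 7763 ± 3395 CPM of *Mt1* and 6549 ± 2866 of *Mt2* (n = 12). Tenocyte-like cells held 12360 ± 3588 and 11344 ± 3589 (log2 fold changes 0.87, SE 0.21, and 1.01, SE 0.22), differences that became -0.04 and 0.08 without the upper limits on genes and UMIs per cell. Lymphatic endothelial-like cells held 447 ± 327 and 327 ± 292 (n = 10, -4.62, SE 0.28, and -4.92, SE 0.29) and vascular endothelial-like cells 938 ± 455 and 667 ± 312 (n = 12, -3.29, SE 0.23, and -3.53, SE 0.24). In sums over the whole class, no library of either endothelial class reached the lowest fibroblast library, at 3151 for *Mt1* and 2433 for *Mt2*. Immune-like, osteoblast-like, proliferating and Schwann-like cells were called lower for both genes by 0.97 to 2.94 on the log2 scale. In Schwann-like cells the call was lost in 4 alternatives for *Mt1* (-0.75 to -0.50) and in 1 for *Mt2*.

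Transcripts as abundant as these are also met as free RNA in droplets. Erythroid-like cells held *Mt1* at 3370 ± 664 CPM (n = 2 libraries), and 48.4% of them held a UMI of it after thinning to 2000 UMIs, against 36.3% of vascular endothelial-like cells and 91.9% of fibroblasts. Among fibroblast clusters the *C4b* cluster was highest, at 17731 ± 3804 CPM of *Mt1* (n = 12, log2 fold change 1.78, SE 0.08) and 14845 ± 3641 of *Mt2* (1.77, SE 0.08), followed by the *Itih2* cluster (1.01 and 1.12). The *C1qtnf3* cluster (2059 ± 1735 of *Mt1*, n = 8, -1.97, SE 0.14, and 1390 ± 920 of *Mt2*, -2.29, SE 0.15) and the *Il1rl1* cluster (-1.07 and -1.14) were lowest. The clusters highest for the metallothioneins, for *Tsc22d3* and for *Hsd11b1* were 3 different ones.

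**Figure D2:**
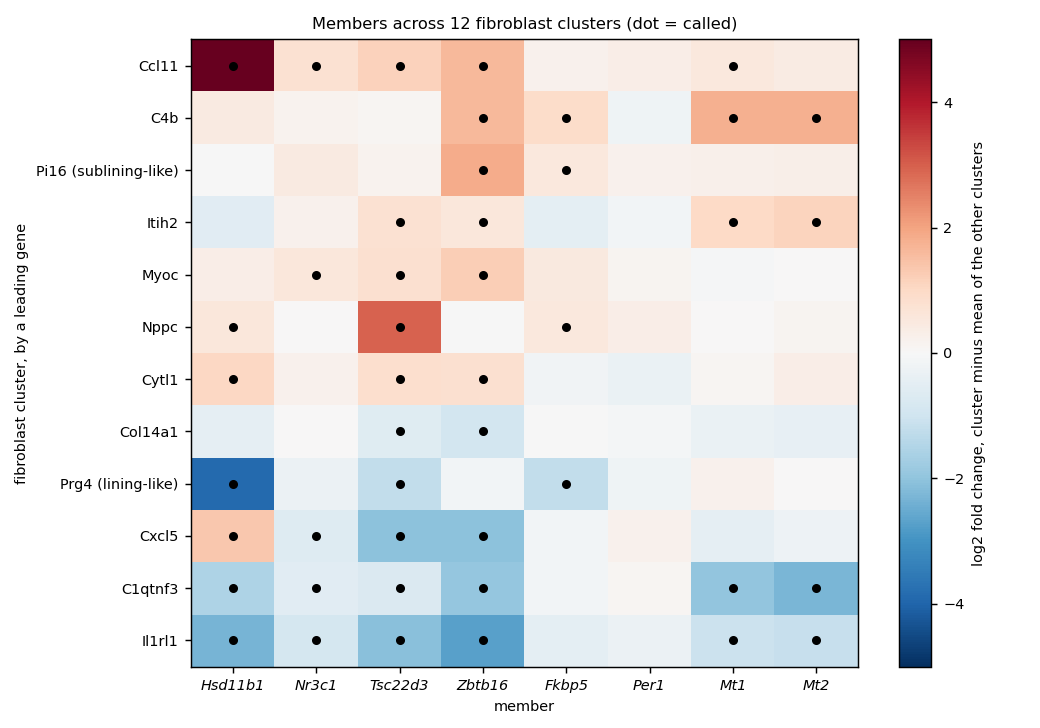
Log2 fold change of each gene (columns) in each of the 12 fibroblast clusters (rows, named by a leading gene) against the mean of the other clusters, with red for higher, blue for lower and a dot for a called difference. *Hsd11b1* peaks in the *Ccl11* cluster, *Tsc22d3* in the *Nppc* cluster and both metallothioneins in the *C4b* cluster, while the *Il1rl1* row is lower for 6 of 8 genes.

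The comparison the study was built on, the later stages of arthritis against rest, gave no call for the 8 genes in fibroblasts. *Tsc22d3* stood at 529, 115 and 138 CPM in the libraries labelled rest, at 486, 97.0 and 437 in those labelled peak, at 518, 169 and 377 in those labelled resolving, and at 103, 140 and 335 in those labelled resolved. *Hsd11b1* ran from 11.2 to 29.9 in the libraries labelled rest, 17.7 to 40.0 at peak, 8.75 to 36.6 at resolving and 6.06 to 27.4 at resolved. All 8 genes overlapped the rest libraries in each of the 3 later stages. By edgeR's quasi-likelihood test 0 of 24 pairs of a gene and a stage were called, with log2 fold changes between -0.41 and 0.87 and a lowest adjusted p of 0.9995, and 0% of 12006 genes were called for peak, resolving or resolved. At an unadjusted p under 0.05 there were 90, 75 and 59 genes, none of them among the 8, and DESeq2 called 0, 1 and 0 genes. With the suffix run as a block the log2 fold changes of the 8 genes lay between -0.39 and 0.46, again with 0 calls.

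The same sums differed by suffix run. *Tsc22d3* stood at 529, 486 and 518 CPM in the libraries of suffixes 1 to 3 and at 437, 377 and 335 in those of 10 to 12, but at 103, 115 and 97.0 in those of 4 to 6 and at 169, 140 and 138 in those of 7 to 9. The 6 libraries of the 2 middle runs lay under the 6 others without overlap. The log2 fold changes against suffixes 1 to 3 were -2.19 (SE 0.12, adjusted p = 5.64e-08) for 4 to 6 and -1.73 (SE 0.12, adjusted p = 7.93e-07) for 7 to 9, and -0.31 (SE 0.12, adjusted p = 0.171) for 10 to 12. *Zbtb16* was low in the same 2 runs, with 26.7, 25.1 and 42.0 in suffixes 1 to 3, 11.9, 6.10 and 7.23 in 4 to 6, 5.59, 5.28 and 5.10 in 7 to 9, and 23.2, 22.1 and 22.4 in 10 to 12. Its log2 fold changes were -1.83 (SE 0.22) for 4 to 6 and -2.50 (SE 0.23) for 7 to 9.

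For *Nr3c1* the runs of suffixes 4 to 6 (62.1, 51.8 and 59.6 CPM) and 7 to 9 (62.8, 88.9 and 54.8) were lower than suffixes 1 to 3 (130, 82.1 and 136) by -0.92 (SE 0.20) and -0.70 (SE 0.19), the latter with ranges that overlap. *Hsd11b1* was low in 1 run, with 8.75, 6.06 and 11.2 in suffixes 7 to 9 against 23.8, 27.8 and 36.6 in suffixes 1 to 3 (-1.76, SE 0.32, adjusted p = 0.00104 in edgeR, or -0.87 without the *Ccl11* cluster, still called), and its level in 4 to 6 (27.4, 29.9 and 17.7) differed by -0.13 (SE 0.29). *Mt1* stood at 9050, 9212 and 7840 in suffixes 1 to 3, at 4824, 3151 and 3886 in 7 to 9 (-1.10, SE 0.18) and at 10762, 11803 and 14313 in 10 to 12 (0.60, SE 0.18, adjusted p = 0.0917). *Mt2* (-1.09, SE 0.19) and *Fkbp5* (-0.91, SE 0.21) were called lower in 7 to 9 as well, and *Per1* was higher in 4 to 6 (0.53, SE 0.18, adjusted p = 0.0307), a call lost in 13 alternatives. With the replicate number as a block 7 of the 8 genes were past the threshold over the runs, at a background of 36.9% of genes. That block removed the single calls just given for *Nr3c1* in both runs, for *Hsd11b1*, *Mt1*, *Mt2* and *Fkbp5* in 7 to 9 and for *Per1* in 4 to 6. With it the values for 7 to 9 were -1.81 for *Hsd11b1*, -1.25 for *Mt1* and -0.59 for *Fkbp5*. All libraries of suffixes 1 to 3 carry replicate number 1, so the block overlaps with the runs and these losses are no separate check of them. Other alternatives removed some of these calls too. For *Nr3c1* the call for 4 to 6 was lost at a coarser clustering and that for 7 to 9 without resolving replicate 1. For *Mt2* the call for 7 to 9 was lost without the *C1qtnf3* and *Cytl1* clusters.

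Scaling by total counts alone moved the share of higher calls among all genes from 69.2% to 33.5% in suffixes 10 to 12. Over the 4 runs together 8 of 8 genes were past an adjusted p of 0.05, at a background of 58.0% of 12006 genes, so that most genes passed and the count is read against that share. Against suffixes 1 to 3 the background was 33.4% of genes for 4 to 6, 24.9% for 7 to 9 and 1.95% for 10 to 12, where 0 of the 8 were called. Below the range of suffixes 1 to 3 without overlap lay 4 of the 8 genes in 4 to 6 (30.6% of all genes), 7 in 7 to 9 (23.2%) and 2 in 10 to 12 (19.1%). Above it lay 1 in 4 to 6 (22.0% of all genes), 0 in 7 to 9 (22.1%) and 2 in 10 to 12 (6.19%). In 10 to 12 *Mt1* and *Mt2* lay above and *Tsc22d3* and *Zbtb16* below. The runs cannot be told apart from whatever differed between these sets of libraries, and no cause was tested.

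**Figure D3:**
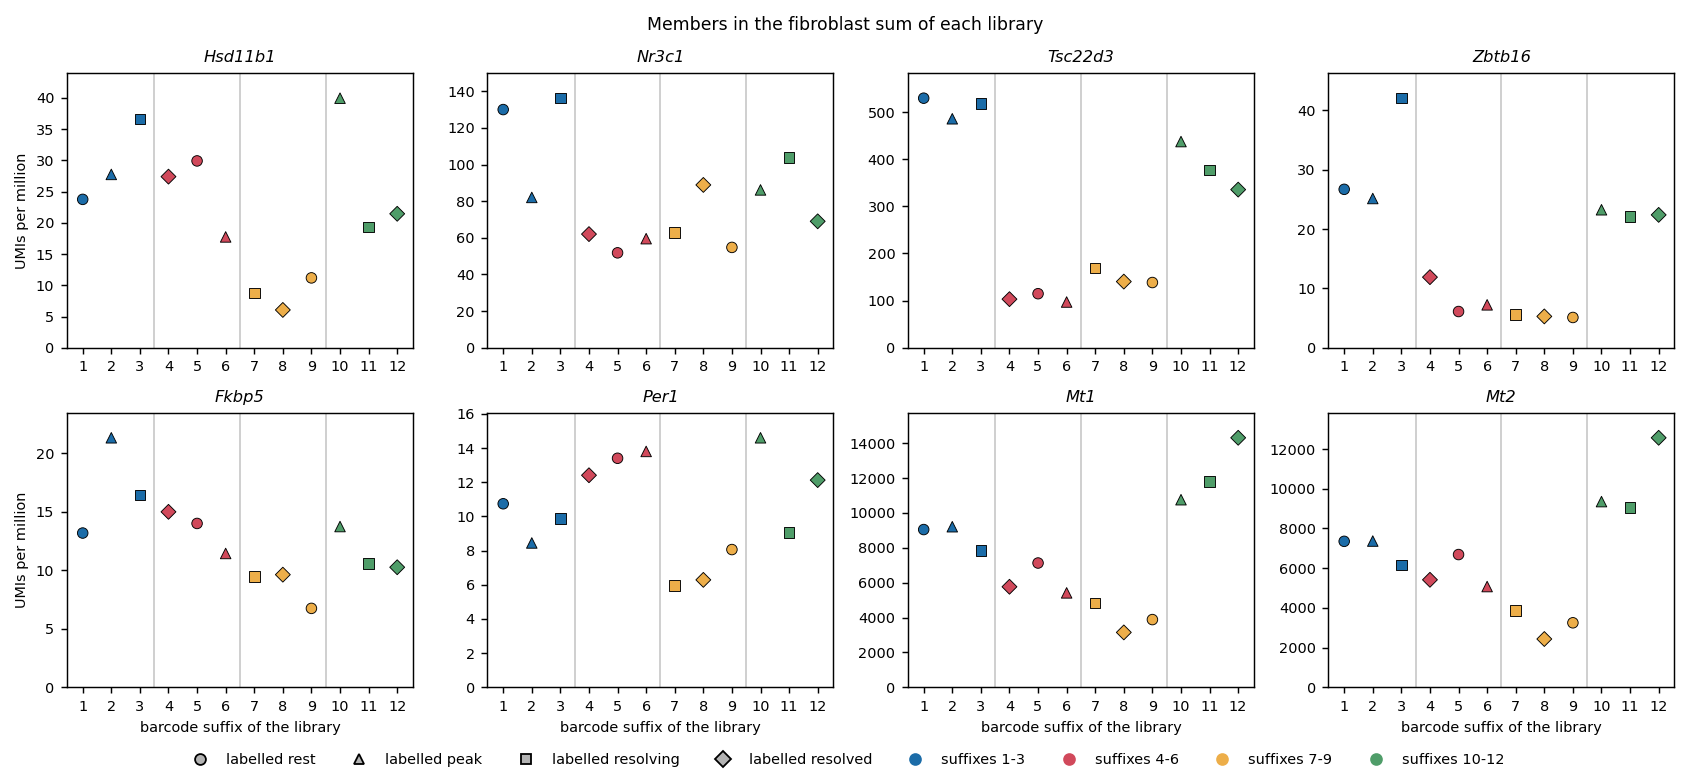
CPM of each gene (panel) in the fibroblast sum of each of the 12 libraries, ordered by barcode suffix, with the stage label as the marker shape and the run as the colour. *Tsc22d3* and *Zbtb16* are low in suffixes 4 to 9 under every label, and *Hsd11b1* is lowest in suffixes 7 to 9.

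The makeup of the fibroblasts moved with the runs. The *Cxcl5* cluster, low in *Tsc22d3* and *Zbtb16*, made up 32.5% of fibroblasts in suffixes 4 to 6 and 0% in suffixes 1 to 3 and 10 to 12. The *C1qtnf3* cluster, low in *Hsd11b1* and the metallothioneins, made up 25.9% in suffixes 7 to 9 and 0.0383% in suffixes 1 to 3. The *Ccl11* cluster made up 8.30%, 6.64%, 2.70% and 8.0% of fibroblasts in the 4 runs, and it gave 65.8%, 33.6%, 30.7% and 58.6% of their *Hsd11b1* UMIs. In suffixes 4 to 6 the *Cxcl5* cluster gave more, 273 of 544 UMIs (50.2%). Whether a gene moved within a kind of cell was therefore asked in the 8 clusters with at least 10 cells in every library.

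Within clusters 14 of 42 tested pairs of a gene and a cluster were called over the 4 runs, at a background of 7.57% of 39367 pairs. *Tsc22d3* was called in 3 of 8 clusters. In the *Cytl1* cluster, which also carried *Ibsp* and *Hapln1*, it fell from 580 ± 117 CPM in suffixes 1 to 3 to 160 ± 15.6 in 4 to 6 and 186 ± 24.4 in 7 to 9 (n = 3 each, log2 fold changes -1.83 and -1.68). In the lining-like cluster it fell from 130 ± 24.9 to 59.0 ± 17.5 and 72.8 ± 10.5 (-1.23 and -0.85), and in the *C4b* cluster from 285 ± 41.4 to 128 ± 23.5 and 138 ± 11.9 (-1.09 and -0.96). In the *Nppc* cluster, the one highest in the gene, the joint test did not pass (adjusted p = 0.0587 in edgeR) while the single difference for 4 to 6 was called (-0.91, SE 0.21, adjusted p = 0.0349). The other 4 clusters had no call either in the joint test or for a single run, with -0.85 and -0.77 for 4 to 6 in the sublining-like and *Myoc* clusters and -0.17 in the *Itih2* cluster. The *Ccl11* cluster, rich in *Hsd11b1*, was among these 4 for *Tsc22d3* (442 ± 20.4, 401 ± 58.7, 397 ± 87.9 and 474 ± 91.7 in the 4 runs, adjusted p = 0.851 in edgeR), with log2 fold changes of 0.04 (SE 0.19) and -0.13 (SE 0.20) for 4 to 6 and 7 to 9. Differences between clusters in their response to the run were not tested.

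*Mt1* and *Mt2* were each called in 5 of 8 clusters, and in the sublining-like and *Myoc* clusters the run of suffixes 10 to 12 was higher by 0.95 and 0.74 for *Mt1* and by 1.03 and 0.87 for *Mt2*. Of all pairs 0.485% were called higher for that run. *Mt2* was called higher in 4 to 6 in the same 2 clusters (0.78 and 1.02, background 2.42%). *Mt1* lay above 0 there in 7 of 8 clusters with 0 calls, although the fibroblast sums gave negative values for both genes. For 7 to 9 neither gene was called in any of the 8 clusters, where 1.54% of all pairs were called higher and 1.12% lower. Their values there ran from -0.78 to 0.13 for *Mt1* and from -0.67 to 0.24 for *Mt2*. The fibroblast sums had given calls of -1.10 and -1.09. *Nr3c1* was called in 1 of 8 clusters, the *Cytl1* cluster (-1.73, SE 0.37, for 4 to 6). *Hsd11b1* was called in 0 of the 2 clusters where it could be tested, *Zbtb16* in 0 of 4, *Fkbp5* in 0 of 3 and *Per1* in 0 of 1. For 4 to 6 and 7 to 9 the values of *Hsd11b1* were 0.31 (SE 0.27) and -0.54 (SE 0.30) in the *Ccl11* cluster. In the *Cytl1* cluster they were 1.53 (SE 0.63) and 0.12 (SE 0.69). These clusters hold fewer UMIs than the fibroblast sums, and an absent call is not shown to be an absent difference.

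In 4 other classes with enough cells in every library 10 of 19 tested pairs were called over the runs. In the sum of all vascular endothelial-like cells *Tsc22d3* fell from 356 ± 28.3 CPM in suffixes 1 to 3 to 132 ± 61.0 in 4 to 6 (log2 fold change -1.45, SE 0.25) and 165 ± 60.9 in 7 to 9 (-1.09, SE 0.25), and *Nr3c1* fell from 207 ± 60.0 to 108 ± 33.4 (-0.96, SE 0.25) and 107 ± 23.4 (-0.90, SE 0.25). With *Mt1* and *Mt2* this made 4 of 6 genes, at a background of 24.8%. That class joins 2 clusters whose mix moved with the runs. The cluster led by *Timp4* made up 65.6%, 29.1%, 30.8% and 82.5% of its cells in the 4 runs, and the cluster led by *Selp* the rest.

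The runs were therefore also fitted within each vascular cluster, a fit chosen after seeing the data. In the *Selp* cluster *Tsc22d3* fell from 357 ± 51.2 CPM in suffixes 1 to 3 to 87.3 ± 46.9 in 4 to 6 and 124 ± 28.9 in 7 to 9 (n = 3 each). The log2 fold changes were -2.10 (SE 0.26) and -1.5 (SE 0.25), and 4 of 4 tested genes were past the joint threshold, at a background of 23.2%. *Nr3c1* was lower there in 4 to 6 (-1.0, SE 0.27), and the value for 7 to 9 (-0.83, SE 0.28, adjusted p = 0.0800) did not pass. In the *Timp4* cluster *Tsc22d3* stood at 358 ± 78.4, 351 ± 138 and 303 ± 184 in the same runs (0.02, SE 0.32, and -0.17, SE 0.32), with no call. *Nr3c1* gave -0.31 (SE 0.35) and -0.62 (SE 0.36) and was not called either. *Mt1* and *Mt2* were past the joint threshold in the *Timp4* cluster (2 of 4 genes, background 1.12%), with values of 2.22 (SE 0.51) and 2.40 (SE 0.51) for 4 to 6 that did not pass singly. The 3 libraries of 4 to 6 spread widely there, from 643 to 5084 CPM for *Mt1* and from 342 to 3891 for *Mt2*. In suffixes 1 to 3 the ranges were 279 to 768 and 348 to 444. The highest values of 4 to 6 lay above the lowest fibroblast library. In the *Selp* cluster both fell in 4 to 6 (-2.04, SE 0.29, and -1.82, SE 0.27). The difference between the 2 clusters was not tested, and the *Timp4* cluster held 87 and 92 cells in 4 to 6 and 7 to 9.

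Other classes differed in which genes moved. In perivascular-like cells 3 of 4 were called (background 26.1%), among them *Mt1*, which fell from 11736 ± 3095 to 3489 ± 424 in 4 to 6 (-1.77, SE 0.26). In tenocyte-like cells 2 of 4 were called (background 3.72%), and there *Mt1* was higher in 4 to 6, at 16218 ± 2653 against 9767 ± 569 (0.79, SE 0.16). In osteoblast-like cells 1 of 5 was called (background 1.76%), *Tsc22d3*, at 691 ± 148, 423 ± 81.8, 326 ± 37.6 and 673 ± 66.8 in the 4 runs.

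The difference between fibroblasts and vascular endothelial-like cells in their response to the run was called for 1 of the 8 genes, *Zbtb16* (adjusted p = 0.0372 in edgeR), at a background of 10.7% of 11957 genes, so that 1 of 8 is near the share of all genes. For *Zbtb16* the log2 change in vascular endothelial-like cells was higher than in fibroblasts by 1.64 for suffixes 4 to 6, 1.99 for 7 to 9 and 1.07 for 10 to 12. The call was lost without 9 of the 12 libraries left out singly and without the *C1qtnf3* and *Cytl1* fibroblast clusters. The cluster makeup of both classes moved with the runs, and *Zbtb16* stood at 24.7 CPM in the *Timp4* and 5.90 in the *Selp* cluster over all cells (92 and 22 UMIs). The part of this makeup in the result was not tested. For *Tsc22d3* the adjusted p of the same test was 0.0785.

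**Figure D4:**
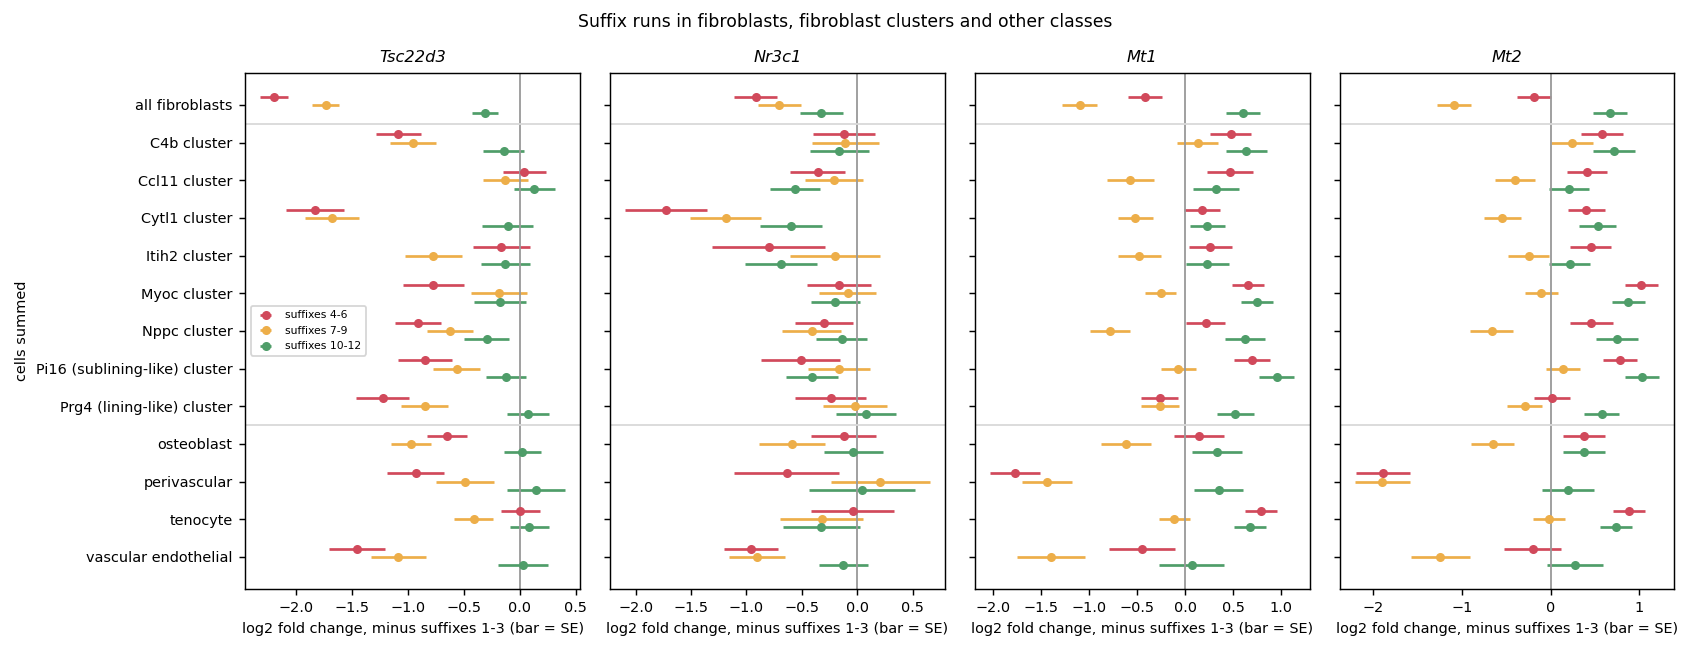
Log2 fold change of *Tsc22d3*, *Nr3c1*, *Mt1* and *Mt2* in each of 3 suffix runs against suffixes 1 to 3 (x axis, bars are SE), for all fibroblasts, 8 fibroblast clusters and 4 other classes (y axis). *Tsc22d3* lies left of 0 in suffixes 4 to 6 for all fibroblasts (-2.19) and the sum of vascular endothelial-like cells (-1.45) but at 0.04 in the *Ccl11* cluster, and *Mt1* points both ways across cell types.

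Other genes of the pathway were read from lists written down by name. Of 24 further glucocorticoid-induced genes 21 were tested in fibroblasts and 21 were past an adjusted p of 0.05 over the runs in mixed directions. The background was 58.0% of all genes, as for the joint counts of the other lists. Of all genes 16.2% were called higher and 17.2% lower in suffixes 4 to 6, 13.4% and 11.4% in 7 to 9, and 1.35% and 0.6% in 10 to 12. In suffixes 4 to 6 against 1 to 3, 6 of the 21 were called higher and 10 lower (median -0.27, all genes -0.01), with *Angptl4*, a lipase inhibitor that hypoxia and fatty acids also induce, higher by 4.98 (SE 0.23) and *Klf15*, a metabolic transcription factor, lower (-2.99, SE 0.34). In 7 to 9 they were 3 and 11 (median -0.50), with *Rgs2*, a regulator of G protein signalling, higher by 2.73 (SE 0.15), and in 10 to 12 they were 5 and 0 (median 0.21, all genes -0.00). The summed level of 23 of these genes ran from 4943 to 6973 CPM in suffixes 1 to 3, 5007 to 5245 in 4 to 6, 4224 to 5402 in 7 to 9 and 7264 to 8718 in 10 to 12. *Klf15* was sparse, at 5.85 to 8.85 CPM in suffixes 1 to 3 and 0.517 to 1.05 in 4 to 6.

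Of 14 genes of steroid handling and receptor machinery 8 were past the joint threshold, a share near the 58.0% of all genes. In suffixes 4 to 6 *Hsd11b2*, which inactivates corticosterone, was higher by 1.59 (SE 0.35) and *H6pd*, which supplies the reducing power for the *Hsd11b1* enzyme, by 1.0 (SE 0.18), while *Nr3c2*, the mineralocorticoid receptor, was lower (-1.10, SE 0.40). *Hsd11b2* was sparse, at 2.02 to 4.43 CPM in suffixes 1 to 3 and 6.72 to 9.45 in 4 to 6. So was *Nr3c2*, at 2.44 to 4.63 and 0.838 to 1.97 in the same runs. In the *Ccl11* cluster *H6pd* was called higher than in the other clusters by 1.17 (SE 0.23), together with *Hsd11b1*. Of 15 further clock genes 14 were past the joint threshold (background 58.0%), and in 4 to 6 as in 7 to 9 there were 10 called lower and 1 higher (medians -0.94 and -0.80). Of all genes 17.2% and 11.4% were called lower in these runs. Among the clock genes lower in 4 to 6 were *Dbp* (-2.55, SE 0.30) and *Per3* (-2.24, SE 0.18). Their summed level was 334 to 356 CPM in 4 to 6 and 332 to 407 in 7 to 9, under the 513 to 713 of suffixes 1 to 3 and the 640 to 695 of 10 to 12.

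Of 12 cytokine, enzyme and protease genes that glucocorticoids are known to repress, 11 were tested in fibroblasts and 11 were called higher in suffixes 4 to 6 (median 2.05, 16.2% of all genes called higher), among them the granulocyte growth factor gene *Csf3* (4.97, SE 0.65), the stromelysin gene *Mmp3* (2.98, SE 0.41) and the prostaglandin synthase gene *Ptgs2* (2.79, SE 0.19). In 7 to 9, 5 were higher and 0 lower (median 0.65), and in 10 to 12, 2 were higher and 0 lower (median 0.85). Their summed level was 2713 to 4321 CPM in suffixes 1 to 3, 8897 to 10069 in 4 to 6, 3968 to 5324 in 7 to 9 and 5817 to 8213 in 10 to 12. Any tie of these levels to that of *Tsc22d3* was not tested. *Csf3* was close to 0 in suffixes 1 to 3, at 0 to 0.805 CPM, and stood at 6.58 to 11.4 in 4 to 6. Of 9 metal response genes 7 were tested and 6 were past the joint threshold (background 58.0%), with *Slc39a14*, a zinc and iron importer that interleukin-6 induces, higher by 3.25 (SE 0.15) in 4 to 6 and the metallothionein *Mt3* lower (-1.93, SE 0.62). *Mt3* was sparse, at 2.82 to 5.37 CPM in suffixes 1 to 3 and 0.263 to 1.56 in 4 to 6. Of 20 dissociation and immediate early genes, which tissue digestion raises, 17 were past the joint threshold in fibroblasts (background 58.0%). In the sum of vascular endothelial-like cells, whose cluster mix moved with the runs, 19 of 20 were (background 24.8%), with 16 called lower in 4 to 6 and 14 in 7 to 9. Of all genes 9.58% and 4.25% were called lower in these runs. In 10 to 12 there were 0 higher and 1 lower, where 0.0428% and 0.0285% of all genes were called. Their summed fibroblast level was 20773 to 27909 CPM in suffixes 1 to 3, 15203 to 15937 in 4 to 6, 15438 to 17563 in 7 to 9 and 21146 to 27231 in 10 to 12. The sum was thus lower in the same 2 runs as *Tsc22d3*, but single genes differed. *Hspa1a* ran from 5142 to 6626 in suffixes 1 to 3, 1873 to 2342 in 4 to 6 and 3040 to 3939 in 7 to 9. *Fos* overlapped (2979 to 5735, 3182 to 3570 and 2701 to 3937 in the same runs). *Ier3* was higher in 4 to 6, at 657 to 715 against 322 to 536. The part of these genes in the *Tsc22d3* result was not tested.

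**Figure D5:**
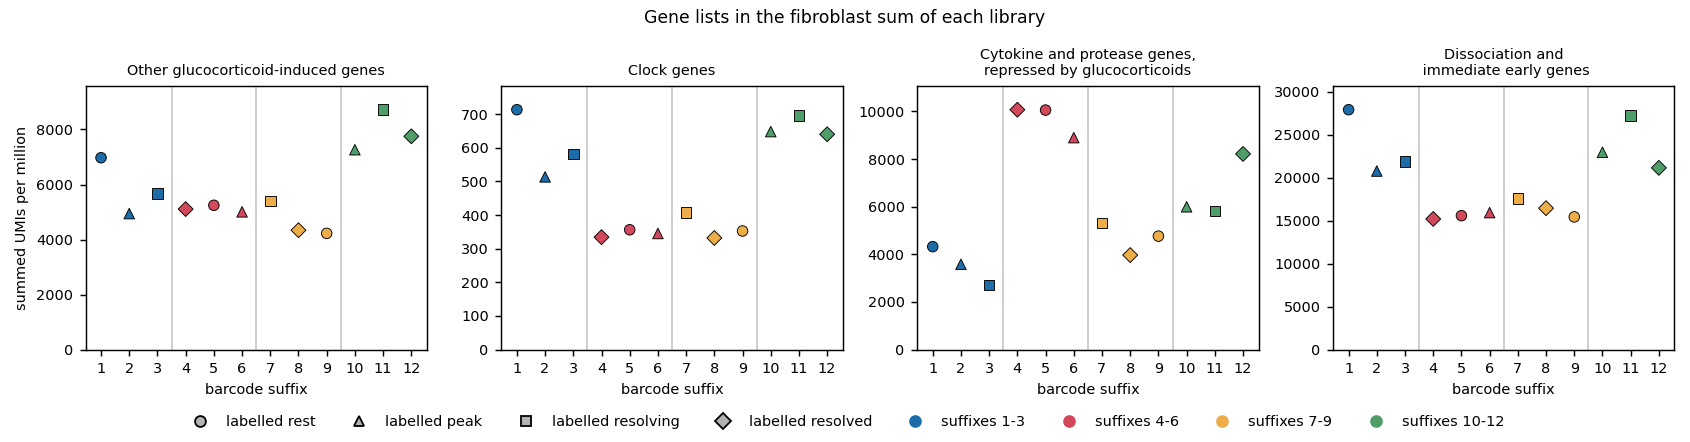
Summed CPM of 4 gene lists (panels) in the fibroblast sum of each library, ordered by barcode suffix, with the stage label as the marker shape and the run as the colour. The sums of clock genes and of dissociation genes are lower in suffixes 4 to 9 than in the other 6 libraries, and that of the cytokine and protease genes is highest in suffixes 4 to 6.

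Over the 12 fibroblast sums, which share depth and the run structure above, the genes whose levels followed each member most closely were given by Pearson's r of log2 levels among 9850 genes, as a description. *Tsc22d3* was followed by *Pmp22* (r = 0.994), *Osbpl1a* (0.989) and *Gps2* (0.987), and *Zbtb16* by *Irak3* (0.979), *Plcxd3* (0.976) and *Samhd1* (0.975). *Mt1* and *Mt2* were each other's closest gene (0.987), followed by *Gfpt2* for *Mt1* (0.986) and *Uap1* for both (0.982 and 0.975). For *Nr3c1* the closest gene was *Morf4l1* (0.967), for *Per1* *Nsun2* (0.939), for *Hsd11b1* *Polr2c* (0.937) and for *Fkbp5* *Ms4a4d* (0.913). Between members *Tsc22d3* and *Zbtb16* had r = 0.89 and *Tsc22d3* and *Per1* r = 0.02.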

How the data were processed

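CD45-negative hind limb joint cells of 12 pooled mouse samples were sequenced with 10x 3′ v2 chemistry, and the deposited counts are UMI counts per gene and cell that the authors made with CellRanger v2.1.1 on mm10. Cells with more than 500 genes and 500 UMIs, fewer than 5000 genes and fewer than 20000 to 40000 UMIs (set by library) were kept. Cells were clustered with scanpy 1.11.5 (2000 variable genes, 30 principal components, 20 neighbours, Leiden resolution 1) without the 8 genes and the gene lists, and clusters were named from marker lists with limits set after the clusters were seen. Scrublet called 56 cells (0.279%), too few to have worked, so no doublets were removed and an alternative left out the 6% of cells per library with the highest scores. Counts were summed per class or cluster and library and tested with edgeR 4.0.16 (quasi-likelihood, TMM, Benjamini-Hochberg), with library as a block between classes or clusters, and with DESeq2 1.42.0 as an alternative. The methods were tested on simulated data. The 8 genes and the lists were chosen with earlier results of these data known, and named genes of the lists are the 3 called with the largest change in a comparison (by F in a joint test). The p-values measure the spread between libraries. Replicate numbers were not taken to pair libraries. The deviations of 11 of 18 same-numbered pairs correlated above 0.1, but the numbers overlap with the suffix runs. Replicate 1 holds suffixes 1 to 4, replicate 2 holds 5 to 8 and replicate 3 holds 9 to 12. Pairing and run can therefore not be told apart by these correlations.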

Additional observations from a re-analysis of the deposited data

Results flagged for a closer look

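Among 32 class levels with 4 to 10 libraries, 3 had a library far from the rest, where chance flags about 1 in 20. *Fkbp5* in proliferating cells stood at 4.52 CPM in the library labelled rest, replicate 3, with the nearest of 6 at 13.1. *Mt2* in lymphatic endothelial-like cells stood at 1045 in resolving replicate 3, with the nearest of 10 at 416. *Zbtb16* in chondrocyte-like cells stood at 15.4 in rest replicate 2, with the nearest of 8 at 6.83. The change of *Zbtb16* over the suffix runs differed between fibroblasts and vascular endothelial-like cells (adjusted p = 0.0372 in edgeR's interaction test), being larger in fibroblasts. The cluster makeup of both classes moved with the runs, and its part was not tested.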

How the results depend on the processing

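Counts of calls stayed within 1.5 times of the reported ones in 169 of 188 recomputed counts, and calls of single genes kept their direction and their side of the threshold in 2038 of 2138. The direction turned for *Hsd11b1* in tenocyte-like cells without the *Ccl11* cluster (0.20, an alternative chosen after seeing the data) and for *Mt1* in tenocyte-like cells without upper limits on genes and UMIs (-0.0367), and the cause was not tested. The lining and sublining count of 6 was 2 with cells thinned to 2000 UMIs. At most 2 of the 6 calls were still tested there, so the thinned cells are no check of the rest. The count over runs in other classes, 10, was 6 at an adjusted p under 0.01 and 8 to 11 without single libraries. Within fibroblast clusters the 14 calls were 25 with no filter on low counts, 9 at an adjusted p under 0.01 and 13 to 17 without single libraries. The single interaction was 2 with no filter on low counts, 2 with doublets removed, 2 at Leiden resolution 0.5 and 2 without the *Ccl11* cluster. It was 0 without the *C1qtnf3* and *Cytl1* clusters (also chosen after seeing the data) and 0 to 1 without single libraries. The vascular endothelial count of 4 was 4 in the *Selp* and 2 in the *Timp4* cluster alone (added after seeing the data). Without single libraries the class count of 39 was 34 to 40, the cluster count of 45 was 42 to 47, and the stage count stayed at 0.

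With the replicate number as a block the stage count was 0 and the run count 7 of 8, and the calls for suffixes 7 to 9 were lost for *Fkbp5*, *Hsd11b1*, *Mt1*, *Mt2* and *Nr3c1* and those for 4 to 6 for *Nr3c1* and *Per1*. The replicate numbers overlap with the suffix runs, so these losses are no separate check of the run calls. Of the same-numbered pairs 11 of 18 correlated above 0.1 (-0.524 to 0.694). Because of the overlap this does not show pairing, and the numbers are not taken to pair libraries. Adding unnamed clusters with fibroblast markers gave no value, since the 1 unnamed cluster held 5 of the fibroblast markers and 6 were asked for. Depth limits *Fkbp5*, *Per1* and *Zbtb16* most, with 1072, 909 and 1326 UMIs in all fibroblasts.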
